A study of Mus musculus with 8 samples.

Results

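The comparison described here set MC38 cells edited with a CRISPR guide RNA against Piezo2 beside MC38 cells that carried a CRISPR control, both without irradiation. MC38 is a mouse colon adenocarcinoma cell line, labelled an epithelial cell line. The control group (WT in the labels, CRISPR-Ctrl) and the edited group (Piezo2-KO in the labels, Piezo2-gRNA1, here KO) had 2 RNA sequencing libraries each, and no other allele or agent is named for either. These 4 libraries were picked out of 8 by their labels, and the comparison was chosen with earlier results of these data known. The other 4 were of the same 2 lines 60 hours after a single X-ray dose of 30 Gy. They took part in the filter on low counts and in the estimate of the spread between libraries. They also gave values from separate libraries, which are set beside some of the values below. Of 29079 genes in the deposited count table, 14923 passed a filter on low counts and made up the comparison. The series as a whole asks how Piezo2 in tumour cells bears on the response to radiation, and the non-irradiated pair gives the state of the lines before it.

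The knockout rests on 1 guide RNA, and the labels do not say whether the edited cells were a clone or a pool. An effect of the edit and a difference between 2 separately derived lines cannot be told apart in this design. Whether the 2 libraries of a group came from separate cultures is not given either, so p-values measure only the spread between these libraries, which may be technical. In bulk RNA, fewer cells of a type and less RNA per cell cannot be told apart. Total counts were 16860703 and 15220800 in WT and 10971004 and 19887180 in KO. Libraries of the same number deviated together in all 4 groups, and the first 2 principal components of the 4 libraries were the line (60.6% of the variance) and the replicate number (32.7%).

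Piezo2 encodes a very large channel of the plasma membrane that opens when the membrane is stretched or indented and lets cations, calcium among them, into the cell. It is best known from sensory neurons of touch and body position, while its close relative Piezo1 serves many epithelial, vascular and blood cells. Calcium that enters through such channels can act on calcineurin, on the actin skeleton and on the transcription regulators YAP and TAZ. The guide makes a cut in DNA, which often leaves the mRNA of the target in place, so that protein is needed to judge a knockout.

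Piezo2 mRNA was at the limit of detection in both lines. Piezo2 (ENSMUSG00000041482, minus strand of chromosome 18, 63010213 to 63387183, mm10) had 0 and 0 reads in the WT libraries and 0 and 1 reads in the KO libraries, where 3 reads were taken as the most that a count of 0 allows. After irradiation it had 3 and 9 reads in the WT libraries and 7 and 12 reads in the KO libraries. It was below the filter and was not tested, and its mRNA therefore does not check the knockout. Piezo1 (ENSMUSG00000014444, minus strand of chromosome 8, 122481698 to 122551329) was abundant, with 280.1 and 352 CPM in WT and 236 and 276 CPM in KO. The values of the lines did not overlap, but the difference (log2 -0.31 ± 0.17, standard error, SE, 2 libraries a side) did not pass the test (edgeR quasi-likelihood test, Benjamini-Hochberg adjusted p = 0.255). With the replicate number as a block the same difference had an adjusted p of 5.52e-08.

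In KO, 2971 of the 14923 tested genes (19.9%) differed from WT at an adjusted p under 0.05, called here higher or lower. Of these, 1555 (10.4% of tested genes) were higher and 1416 (9.49%) lower in KO. Of the tested genes, 1475 passed the filter only with the irradiated libraries, and 53 of those were called. Many differences were small: the median absolute log2 difference of called genes was 0.63, and 44.6% of them were under 1.5-fold. At least 2-fold differences were called for 469 higher and 379 lower genes, and at least 4-fold differences for 203 and 162. The lines' CPM (read counts scaled to a library total of 1000000) did not overlap for 57.1% of all tested genes and for all 2971 called genes. Called genes were not spread evenly over abundance: 6.21% of genes under 1 CPM were called, against 24.8% of genes over 100 CPM. With the replicate number as a block, 6701 genes (44.9%) were called, and all 2971 were among them. The fits with 1 library left out, here and below, had no such block and were unbalanced in replicate number. Leaving out WT replicate 1, WT replicate 2, KO replicate 1 or KO replicate 2 left 1545, 1551, 1595 and 1745 calls, with no gene called in the opposite direction. Each gene list is described by its members called higher and called lower in KO, in that order in brackets, read against the 10.4% and 9.49% of all tested genes.

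The median difference was shifted on 3 chromosomes, and many called genes lay on them. The median log2 difference between KO and WT was 0.37 over 1148 tested genes of chromosome 7 and 0.38 over 358 of chromosome 18. Over 448 genes of chromosome 16 it was -0.32. On the other autosomes and X the medians ran from -0.12 to 0.08, and over all tested genes the median was -0.01. On chromosome 7, 29.1% of tested genes were called higher, on chromosome 18 38.3%, and on chromosome 16 31.2% were called lower. Together the 3 chromosomes held 681 of the 2971 calls (34.9% of their tested genes, against 17.7% elsewhere). The shift of chromosome 7 was not seen in the first of 10 equal bins of its tested genes (median log2 -0.14), and that of chromosome 18 was near 0 in the first bin (0.01) and negative in the fifth (-0.22), while every bin of chromosome 16 was negative. The 4 irradiated libraries gave medians of 0.38, 0.40 and -0.36 for chromosomes 7, 18 and 16. DNA copy number was not measured in these files, and its part in the differences was not tested. The chromosome is given for each tested gene named below that lies on one of these 3.

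**Figure D1:**
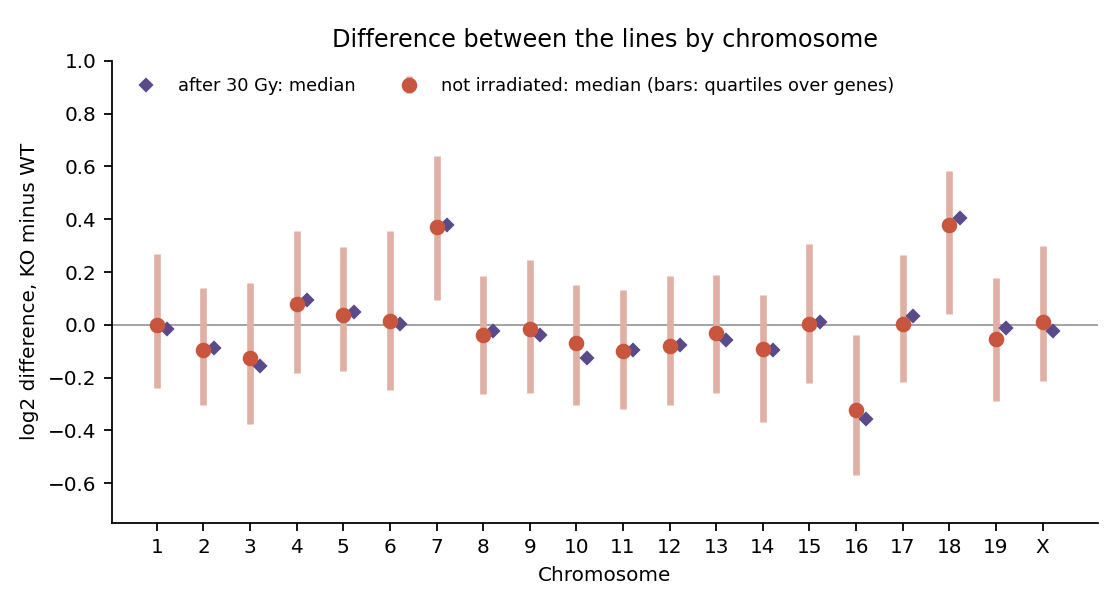
Fitted log2 difference between KO and WT by chromosome. Circles are medians over the tested genes of a chromosome without irradiation, vertical bars run from the lower to the upper quartile over genes, and diamonds are medians in the 4 irradiated libraries. Chromosomes 7 and 18 sit near 0.37 and 0.38 and chromosome 16 at -0.32, and all others lie between -0.12 and 0.08.

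A set of genes was read in 1 line and nearly silent in the other. With at most 3 reads in all in 1 line and 1 CPM or more on average in the other, 30 genes were off in KO and 22 were off in WT. After irradiation the line that had been on was still the higher one for 29 of the 30 and 21 of the 22, while the line that had been off stayed at 3 reads or fewer for 11 of the 30 and 4 of the 22. Of the 30 genes off in KO, those with the highest CPM in WT are given first. Emb (embigin, a surface glycoprotein that accompanies monocarboxylate transporters, chromosome 13) had 28.8 and 27.6 CPM in WT and no read in either KO library, at least 290.5-fold lower against the floor of 3 reads over the group. Itpkb, a kinase that phosphorylates the calcium-releasing messenger inositol trisphosphate, had 9.96 and 11.2 CPM in WT and no read in KO, at least 108.7-fold lower. Enpp5 had 8.84 and 8.41 CPM in WT, Ndp, which encodes the Frizzled ligand norrin, 7.18 and 7.29 CPM, and the zinc finger factor gene Zic5 8.72 and 5.52 CPM, all with no read in KO. Nptx1, a secreted neuronal pentraxin, was at 30.2 and 41.3 CPM in WT and 0.182 and 0.0503 CPM in KO, a ratio of 364.5 (95% exact interval of the read split 124.4 to 1770). Dact2, an antagonist of Wnt signalling, and Plagl1, an imprinted zinc finger gene, were lower in KO as well (WT means 8.78 and 5.78 CPM, KO means 0.116 and 0.0456 CPM). The protocadherin gene Pcdhga5 went from 5.46 and 7.36 CPM in WT to 0 and 0.101 CPM in KO, against the upward shift of its chromosome 18. Its reads may be shared with other members of its cluster. Large falls were also called for Ncam1 and Lhfpl4, which had more than 3 reads in KO and were not among the 30. Ncam1, the neural cell adhesion molecule, was at 49.0 and 59.3 CPM in WT and 0.182 and 0.453 CPM in KO (log2 -7.23 ± 0.26). Lhfpl4, a partner of GABA receptors, had means of 23.8 CPM in WT and 0.237 CPM in KO.

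Of the 22 genes off in WT, those with the highest CPM in KO are given next. Clstn3, a calsyntenin of synaptic membranes, had no read in either WT library and 13.8 and 12.4 CPM in KO, at least 138.3-fold higher. Bche, which encodes the plasma enzyme butyrylcholinesterase, had no read in WT and 11.7 and 7.69 CPM in KO, at least 97.4-fold higher. Lama4, a laminin chain of vessel and muscle basement membranes, was at 0 and 0.0657 CPM in WT and 10.3 and 9.45 CPM in KO, a ratio of 312.9 (exact interval 55.7 to 12400.7, from 1 read in WT). Shisa8, an auxiliary subunit of glutamate receptors, was at 0.0593 and 0.131 CPM in WT and 6.02 and 8.55 CPM in KO. The transcription factor genes Klf8 (4.10 and 5.58 CPM in KO) and Setbp1 (4.56 and 3.62 CPM in KO, chromosome 18), the sterol 27-hydroxylase gene Cyp27a1 (3.92 and 3.32 CPM in KO) and Tslrn1 (5.10 and 6.29 CPM in KO) each had at most 3 reads over both WT libraries. Further large rises were called for genes with a few reads in WT. Sprr1a, a precursor of the cornified envelope, was at 0.178 and 0.0657 CPM in WT and 8.57 and 9.001 CPM in KO (log2 6.05 ± 0.31). Kazn, a desmosome-associated protein gene, was at 0.178 and 0.329 CPM in WT and 11.2 and 10.8 CPM in KO (log2 5.40 ± 0.32), and the peptide hormone gene Edn2 (endothelin 2) at 0.119 and 0.197 CPM in WT and 9.39 and 7.44 CPM in KO (log2 5.67 ± 0.39). On chromosome 7 the serine protease gene Klk6 was at 0.296 and 0 CPM in WT and 6.29 and 7.44 CPM in KO, and the RNA-binding translation regulator gene Cpeb1 at 0.0593 and 0.263 CPM in WT and 13.8 and 13.7 CPM in KO.

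**Figure D2:**
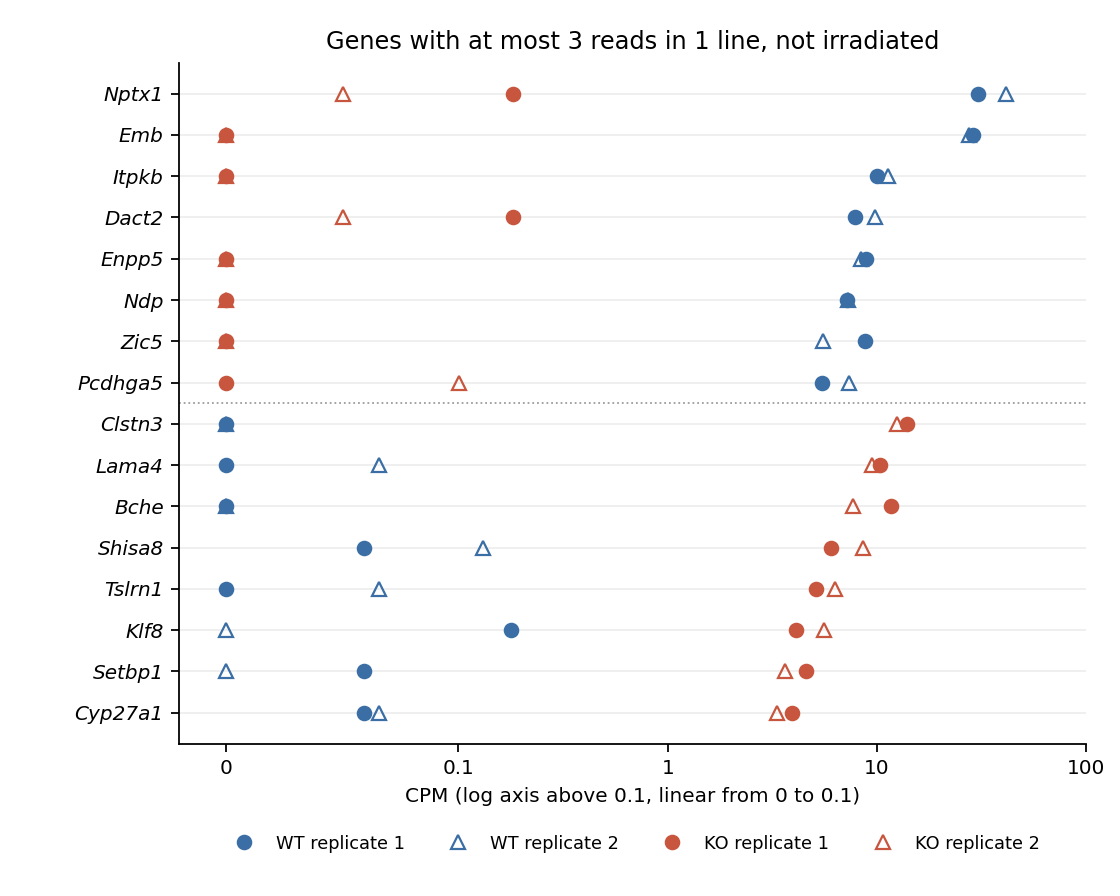
CPM of the 16 genes with at most 3 reads in 1 non-irradiated line and the highest CPM in the other, 8 in each direction. The horizontal axis is logarithmic above 0.1 CPM and linear below it, circles are replicate 1 and triangles replicate 2, blue is WT and red is KO. Every gene shows a wide gap between the lines, with both libraries of the silent line at or below 0.19 CPM.

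The 5 largest called gains in CPM were in Sparc, Gsn, Krt14, Crip1 and Ly6c1. Sparc, an abundant collagen-binding matrix protein gene, was at 1942 and 1995 CPM in WT and 3698 and 3795 CPM in KO (log2 0.92 ± 0.07, adjusted p = 0.00019). Gsn, which encodes the actin-severing protein gelsolin, was at 183 and 170.5 CPM in WT and 865 and 794 CPM in KO (log2 2.22 ± 0.08, adjusted p = 1.75e-05). Krt14, a keratin of basal epithelial cells, was at 526 and 513 CPM in WT and 1100.1 and 1109 CPM in KO, and Crip1, a small LIM domain protein gene, at 184 and 193 CPM in WT and 594 and 662 CPM in KO. Ly6c1, a surface marker gene of the Ly6 family, was at 369 and 266 CPM in WT and 1013 and 688 CPM in KO, with replicate 1 above replicate 2 in both lines. The 5 largest called losses were in Hsp90ab1, Hspa8, Vim, Eef2 and Ecm1. The heat shock protein gene Hsp90ab1 was at 5862 and 5544 CPM in WT and 4840.5 and 4688 CPM in KO and Hspa8 at 3868 and 3835 CPM in WT and 2922 and 2922 CPM in KO (log2 -0.27 ± 0.07 and -0.41 ± 0.06). Vim, the vimentin gene, was at 3915 and 4336 CPM in WT and 3079.6 and 3316 CPM in KO, the elongation factor gene Eef2 at 3531 and 3839 CPM in WT and 2678 and 2969.7 CPM in KO, and the extracellular matrix protein gene Ecm1 at 1769 and 1976 CPM in WT and 968 and 1154 CPM in KO (log2 -0.83 ± 0.14). Calls were lost for Ly6c1 without WT replicate 2 or KO replicate 1, and for Hsp90ab1 without WT replicate 1, KO replicate 1 or KO replicate 2. The call of Vim was lost without each of the 4 libraries in turn. That of Eef2 was lost without WT replicate 1, WT replicate 2 or KO replicate 1. These fits had no replicate block. With the block and all libraries, the adjusted p (edgeR quasi-likelihood test) was 1.32e-28 for Ly6c1, 1.18e-12 for Hsp90ab1, 4.53e-16 for Vim and 1.45e-16 for Eef2.

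Most interferon-stimulated genes were higher in KO without any irradiation. Type I interferon acts through a transcription factor complex that contains IRF9 and binds a short element, the interferon-stimulated response element (ISRE), near the start of its target genes. Of 40 tested interferon-stimulated genes, 29 were called higher and none lower (0 lower at an unadjusted p under 0.05 and 0 by DESeq2). Fewer were called higher when any 1 of the 4 libraries was left out. Of the 29, 1 passed the filter only with the irradiated libraries. The median log2 difference of the 40 was 1.41, against -0.01 over all tested genes. The sequences of 4 promoter windows that hold the ISRE core are shown as examples from the called members; they were chosen after their values were seen. They are RefSeq sequence of build GRCm38.p6, 5′ to 3′ in the direction of the gene, and capitals mark each match of GAAANNGAA or of its reverse complement.
Isg15, chr4:156200856-156200916, minus strand: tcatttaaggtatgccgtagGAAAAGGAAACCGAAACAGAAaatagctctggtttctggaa
Ifit1, chr19:34640760-34640833, plus strand: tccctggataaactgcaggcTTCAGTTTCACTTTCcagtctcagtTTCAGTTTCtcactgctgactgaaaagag
Ifit3, chr19:34583354-34583455, plus strand: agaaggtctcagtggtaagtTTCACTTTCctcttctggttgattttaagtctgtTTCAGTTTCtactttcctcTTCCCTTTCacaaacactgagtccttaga
Oas3, chr5:120777700-120777754, minus strand: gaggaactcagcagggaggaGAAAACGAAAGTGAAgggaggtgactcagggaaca
Windows ran from 250 bases before to 50 bases after the RefSeq start. The core was found on either strand in 20 of the 29 tested interferon-stimulated genes with a window, called or not (69.0%). It was in 14 of the 22 called higher with a window (63.6%), and in 910 of 10516 tested genes with one (8.65%). It was in 10.6% of all genes called higher and 8.64% of all genes called lower. The AP-1 motif TGANTCA, searched the same way, was in 6.59% of tested genes, 8.45% of those higher and 6.75% of those lower. A match describes the letters in these windows only.

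The interferon-stimulated genes called higher included oligoadenylate synthetase genes, which sense double-stranded RNA, and IFIT genes, whose products bind viral RNA. Oas2 was at 0.119 and 0 CPM in WT and 3.65 and 2.62 CPM in KO, a ratio of 47.8 (exact interval 12.9 to 400.8, from 2 reads in WT). Ifit3 was at 0.534 and 0.394 CPM in WT and 10.9 and 5.53 CPM in KO (log2 4.04 ± 0.65, adjusted p = 0.00505), and Ifit1 at 0.415 and 0.591 CPM in WT and 7.11 and 5.43 CPM in KO (log2 3.59 ± 0.49). Both KO libraries of each gene lay above both WT libraries, and replicate 1 was above replicate 2 in KO. Oas3 was at 1.54 and 1.91 CPM in WT and 7.11 and 7.95 CPM in KO (log2 2.13 ± 0.25). Mx2, a dynamin-like antiviral GTPase gene on chromosome 16, had no read in WT and 1.00 and 0.453 CPM in KO, at least 6.93-fold higher. Ifi44 was at 0.178 and 0 CPM in WT and 3.10 and 1.71 CPM in KO, a ratio of 23.6 (exact interval 7.73 to 117.1). Isg15, the ubiquitin-like modifier gene, was at 1.36 and 1.18 CPM in WT and 3.74 and 3.82 CPM in KO (log2 1.55 ± 0.25). Not every member moved: Ifitm3, a membrane protein gene against virus entry on chromosome 7, was at 88.7 and 81.7 CPM in WT and 78.1 and 78.7 CPM in KO (adjusted p = 0.353). After irradiation 39 of the 40 were called higher in KO, against 13.3% of all tested genes, with a median log2 difference of 3.16, and for 15 of the 40 the difference between the lines was another size without irradiation than after it, against 1.94% of all. The interferon gene Ifnb1 itself had 1 and 0 reads in WT and 1 and 0 reads in KO. Reads of Ifit and Oas genes with close copies may be split between them. The test was no longer passed by Ifi44 without each of the 4 libraries in turn (adjusted p up to 0.131).

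**Figure D3:**
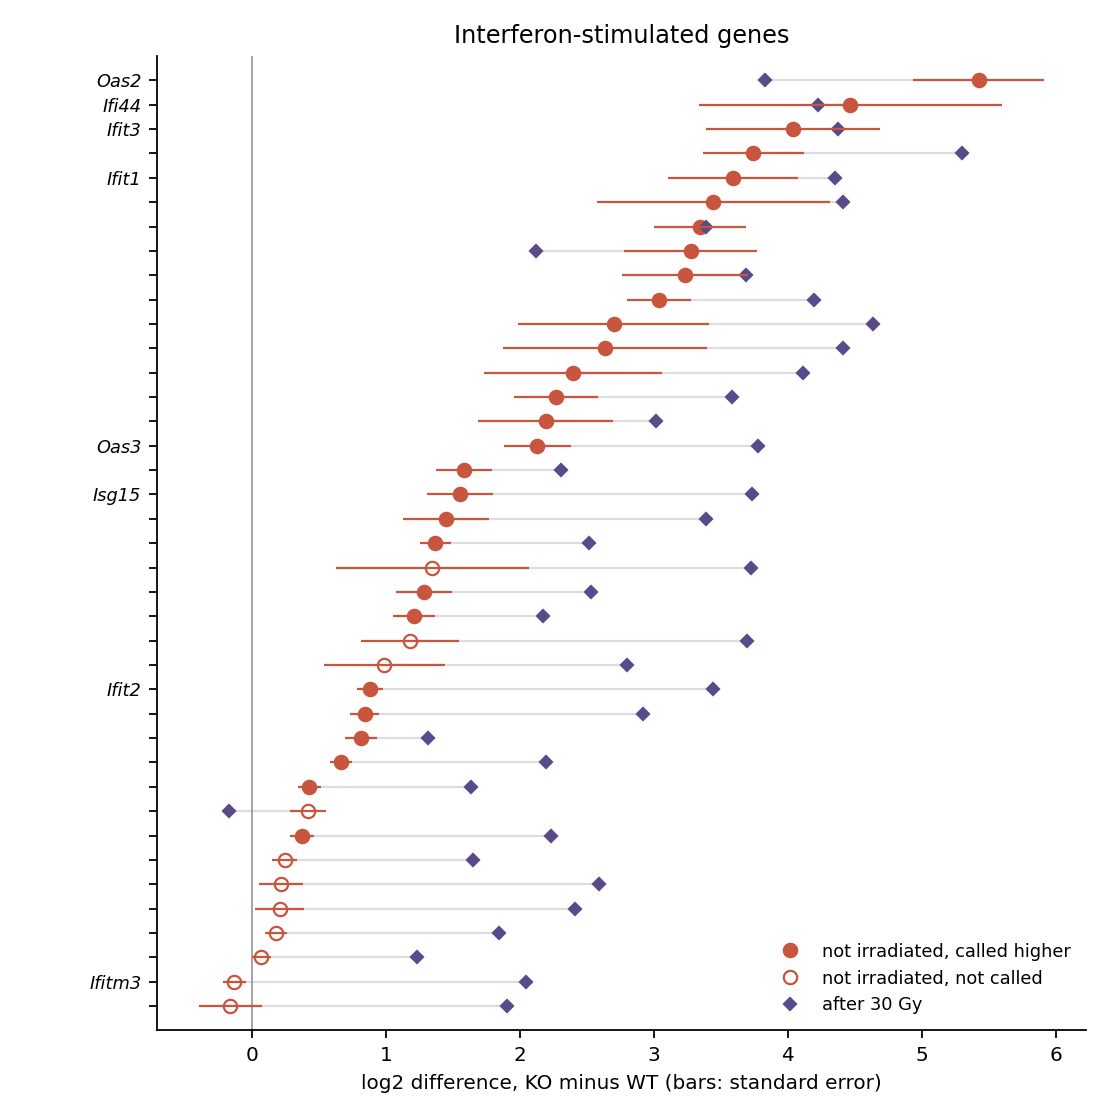
Log2 difference between KO and WT for 39 tested interferon-stimulated genes, with all but Mx2, which had no read in WT; genes named in the text are labelled. Filled circles were called higher without irradiation and open circles were not called, horizontal bars are the SE of the fit on 2 libraries a side, and diamonds are the values after 30 Gy. Values without irradiation run from -0.16 to 5.43, and most diamonds lie to the right of their circle.

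Markers of immune cells were at or near 0 apart from Cd68. The 9 markers of T and NK cells found in the table summed to 0 and 0.131 CPM in WT and 0.273 and 0.251 CPM in KO, with Cd3e, Cd3g, Trac, Nkg7, Gzmb and Prf1 at 0 reads in all 4 libraries. Of 12 macrophage markers, Adgre1, Itgam, C1qb, C1qc and Tyrobp had no read, and the list summed to 3.91 and 4.07 CPM in WT and 7.474 and 7.995 CPM in KO. Cd68, a lysosomal protein gene, made up nearly all of that sum and was called higher (log2 1.04 ± 0.14). The labelled epithelial identity rested on few markers. Of 7 tested epithelial genes, 2 were called higher (Cdh1 and the tight junction gene Tjp1) and 1 lower (Krt19) (1 and 0 to 1 without 1 library). Cdh1 (E-cadherin) was at 38.1 and 39.9 CPM in WT and 47.9 and 50.1 CPM in KO. The keratin gene Krt19 was at 1.42 and 0.920 CPM in WT and 0.0911 and 0.101 CPM in KO. Tjp1 (chromosome 7) was at 178 and 207 CPM in WT and 320.4 and 325 CPM in KO. The keratin genes Krt8 and Krt18 had 0 to 3 reads in each library and Cldn3 none. The call did not hold for Cdh1 without each of the 4 libraries in turn (adjusted p up to 0.12) and Krt19 without WT replicate 1 or KO replicate 1 or KO replicate 2 (adjusted p up to 0.0846).

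Several nucleic acid sensing genes rose in KO, that of STING among them. Of 16 tested genes, 5 were called higher and 1 lower (11 and 3 with the replicate block, 2 to 3 and 0 to 1 without 1 library), with a median log2 of 0.29. Tmem173, which encodes the adaptor STING that relays cytosolic DNA to interferon genes, was at 10.3 and 12.9 CPM in WT and 37.5 and 35.6 CPM in KO (log2 1.65 ± 0.12). It lies on chromosome 18, but its difference was larger than that chromosome's median. Ifi203, an interferon-inducible DNA-binding gene, was at 9.07 and 10.2 CPM in WT and 16.9 and 15.5 CPM in KO (log2 0.73 ± 0.11), and Ifi205, a gene of the same family, at 0.356 and 0.263 CPM in WT and 1.73 and 0.905 CPM in KO. Irf3, the transcription factor downstream of STING (chromosome 7), was at 21.6 and 23.3 CPM in WT and 28.3 and 29.5 CPM in KO, and Mavs, the adaptor of RNA sensors, was lower at 67.3 and 69.1 CPM in WT and 55.0 and 49.5 CPM in KO. Cgas, the enzyme upstream of STING, was at 6.46 and 4.34 CPM in WT and 7.47 and 7.29 CPM in KO (adjusted p = 0.212, and 0.0413 with the replicate block). Calls were lost for Ifi205 without WT replicate 1 or WT replicate 2 or KO replicate 1 (adjusted p up to 0.0742), Irf3 without each of the 4 libraries in turn (adjusted p up to 0.149) and Mavs without WT replicate 1 or WT replicate 2 or KO replicate 2 (adjusted p up to 0.0673).

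Genes of antigen presentation were not called higher before irradiation. None of 20 tested genes of the MHC class I pathway was called higher (0 higher at an unadjusted p under 0.05 and 0 by DESeq2) and 5 were called lower (2 and 10 with the replicate block, 0 and 3 to 4 without 1 library). Psmb8, an immunoproteasome subunit gene, was at 5.04 and 8.34 CPM in WT and 2.19 and 1.81 CPM in KO (log2 -1.77 ± 0.28), and its partner Psmb9 at 2.31 and 2.37 CPM in WT and 0.820 and 1.06 CPM in KO (log2 -1.28 ± 0.29). Tap1, a subunit of the peptide transporter into the endoplasmic reticulum, was at 17.4 and 18.1 CPM in WT and 12.8 and 12.6 CPM in KO (log2 -0.50 ± 0.08). With the 4 non-irradiated libraries alone, the same test gave Tap1 an adjusted p of 0.0564. The non-classical gene H2-Q4 was at 13.3 and 12.2 CPM in WT and 7.57 and 9.30 CPM in KO, and Psme1, a proteasome activator gene, was at 55.4 and 59.7 CPM in WT and 44.1 and 40.9 CPM in KO. The classical heavy chain gene H2-K1 was at 384 and 349.9 CPM in WT and 383 and 358 CPM in KO (log2 0.00 ± 0.10, adjusted p = 0.9995) and the light chain gene B2m at 581 and 520.1 CPM in WT and 552 and 510.0 CPM in KO (adjusted p = 0.736). After irradiation 13 of the 20 were called higher in KO (13.3% of all tested genes were), and the test of whether the difference changed with irradiation called 9 of the 20 (1.94% of all). Reads of MHC genes with close copies may be split between them. The test was no longer passed by Psmb9 without each of the 4 libraries in turn (adjusted p up to 0.0892) and H2-Q4 without WT replicate 1 or WT replicate 2 or KO replicate 1 (adjusted p up to 0.132).

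Inflammatory signalling genes that passed the test were mostly lower in KO. Of 16 NF-kB subunits and targets, 1 was called higher and 7 lower (0 to 1 and 4 to 5 without 1 library), with a median log2 of -0.28. Tnfaip2 was at 206 and 204 CPM in WT and 83.3 and 82.8 CPM in KO (log2 -1.31 ± 0.07). Traf1, an adaptor of TNF receptors, was at 75.9 and 77.6 CPM in WT and 38.0 and 37.1 CPM in KO. Tnfaip3, which encodes the feedback inhibitor A20, was at 4.27 and 3.75 CPM in WT and 1.91 and 2.01 CPM in KO. With the 4 non-irradiated libraries alone, the same test gave Tnfaip3 an adjusted p of 0.0653. Nfkb2, the precursor of the p52 subunit, was at 205 and 240.3 CPM in WT and 120.5 and 140.2 CPM in KO (log2 -0.78 ± 0.13). Of 25 tested chemokines, cytokines and receptors, 2 were called higher and 9 lower (5 and 13 with the replicate block, 0 to 2 and 5 to 7 without 1 library). Cx3cl1, the membrane-bound chemokine fractalkine, was at 11.8 and 12.2 CPM in WT and 0.365 and 0.704 CPM in KO (log2 -4.37 ± 0.25), and the IL-33 receptor gene Il1rl1 at 1.84 and 2.63 CPM in WT and 0.547 and 0.402 CPM in KO. Il15, a growth factor of T and NK cells, was at 6.58 and 4.80 CPM in WT and 13.1 and 9.65 CPM in KO, one of the 2 that rose. Of 18 tested checkpoint, co-stimulatory and NK cell ligands, 3 were called higher and 3 lower. Pvr, a ligand of TIGIT and CD226 on chromosome 7, was at 84.6 and 75.95 CPM in WT and 183 and 168 CPM in KO (log2 1.12 ± 0.09), and Lgals9, which encodes galectin 9, at 65.8 and 67.6 CPM in WT and 102 and 106 CPM in KO. Cd47, the signal against phagocytosis (chromosome 16), was at 189 and 182 CPM in WT and 136 and 115 CPM in KO, and the NKG2D ligand gene Ulbp1 at 27.5 and 30.8 CPM in WT and 16.2 and 18.7 CPM in KO. Nt5e, which encodes the adenosine-producing enzyme CD73, was at 0.474 and 0.460 CPM in WT and 1.64 and 2.56 CPM in KO. The call did not hold for Il15 without WT replicate 2 or KO replicate 1 (adjusted p up to 0.12).

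Most genes of cholesterol synthesis and uptake rose in KO. Of 24 tested genes, 16 were called higher and none lower (0 lower at an unadjusted p under 0.05 and 0 by DESeq2), with a median log2 of 0.52. Fewer were called higher when any 1 of the 4 libraries was left out. These genes are driven by the factor SREBP2, which is released from the endoplasmic reticulum when sterol is scarce. Hmgcs1, the synthase that makes HMG-CoA, was chosen after its values were seen because its window was the only 1 of 16 in the list with the sterol element TCACNCCAC, against 1.39% of tested genes. It was at 309 and 293 CPM in WT and 530.0 and 460.3 CPM in KO (log2 0.71 ± 0.09), and its element is shown in capitals (RefSeq, GRCm38.p6).
Hmgcs1, chr13:119690194-119690242, plus strand: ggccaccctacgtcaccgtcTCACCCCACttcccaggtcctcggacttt

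The largest rises of the cholesterol list were in 4 genes of sterol control, reduction and transfer. Insig1, the sterol-regulated retention factor of that system, was at 171 and 147 CPM in WT and 357 and 298 CPM in KO (log2 1.03 ± 0.17). Tm7sf2, a sterol reductase gene, was at 8.48 and 8.54 CPM in WT and 16.6 and 19.1 CPM in KO (log2 1.06 ± 0.16). Dhcr7, the last reductase of the pathway (chromosome 7), was at 92.7 and 90.01 CPM in WT and 160.4 and 159 CPM in KO, and Stard4, a sterol transfer protein gene (chromosome 18), at 117 and 117 CPM in WT and 232 and 200.5 CPM in KO. Without the 2 members on shifted chromosomes the median was 0.48. After irradiation 7 of the 24 were called higher in KO, against 13.3% of all tested genes, with a median log2 of 0.25.

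DNA replication genes that passed the test were mostly lower in KO. Of 32 tested S phase genes, 1 was called higher and 14 lower (1 and 24 with the replicate block, 1 and 6 to 8 without 1 library), with a median log2 of -0.29. Tyms, which makes thymidylate, was at 72.1 and 66.4 CPM in WT and 41.1 and 45.9 CPM in KO (log2 -0.68 ± 0.10). Cdt1, the licensing factor gene of replication origins, was at 116 and 115 CPM in WT and 70.3 and 78.7 CPM in KO (log2 -0.64 ± 0.08), and Mcm4, a helicase subunit gene on chromosome 16, at 309 and 323 CPM in WT and 213 and 198 CPM in KO. The ribonucleotide reductase subunits moved apart: Rrm2 was at 462 and 420.1 CPM in WT and 303 and 283 CPM in KO (log2 -0.60 ± 0.08), whereas Rrm1, on chromosome 7, was at 345 and 349.7 CPM in WT and 474 and 456 CPM in KO (log2 0.41 ± 0.07). Genes of G2 and mitosis gave no such majority, with 4 of 27 called higher and 3 lower (8 and 12 with the replicate block, 0 to 3 and 0 to 1 without 1 library). Cdkn1a, which encodes the cell cycle inhibitor p21, was at 93.8 and 86.4 CPM in WT and 173 and 161 CPM in KO (log2 0.88 ± 0.08, adjusted p = 0.000369).

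Genes of double-strand break repair that passed the test were mostly lower too, 10 of 30 against 1 higher (4 and 17 with the replicate block, 0 to 1 and 3 to 6 without 1 library), with a median log2 of -0.25. Trp53bp1, which encodes the end-protecting factor 53BP1, was at 71.2 and 77.1 CPM in WT and 45.8 and 51.0 CPM in KO (log2 -0.62 ± 0.10). Fanca, a Fanconi anaemia core gene, was at 109 and 111 CPM in WT and 76.2 and 78.3 CPM in KO, and Xrcc3, a gene of homologous recombination, at 37.2 and 34.9 CPM in WT and 26.2 and 24.6 CPM in KO. H2afx, which encodes the histone that is phosphorylated at breaks, was at 77.4 and 119.6 CPM in WT and 35.5 and 54.4 CPM in KO, with a wide spread between replicates in both lines. Targets of p53 went both ways, 3 of 28 higher and 3 lower (6 and 8 with the replicate block). Pmaip1, which encodes the pro-apoptotic protein NOXA, was at 6.88 and 4.86 CPM in WT and 0.273 and 0.201 CPM in KO (log2 -4.65 ± 0.40), against the upward shift of its chromosome 18. Trp53inp1 was at 1.78 and 1.71 CPM in WT and 4.65 and 4.78 CPM in KO (log2 1.42 ± 0.20), and Plk2, a kinase gene induced by p53, at 203 and 196 CPM in WT and 149 and 133 CPM in KO. Of 26 tested apoptosis regulators, 2 were called higher and 4 lower (6 and 7 with the replicate block, 0 and 2 to 3 without 1 library), among them Bok, a pore-forming relative of BCL2, at 51.6 and 47.2 CPM in WT and 28.1 and 27.4 CPM in KO. Calls were lost for H2afx without WT replicate 2 or KO replicate 1 or KO replicate 2 (adjusted p up to 0.186).

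Extracellular matrix genes were called in both directions. Of 33 tested glycoproteins and proteoglycans, 9 were called higher and 10 lower (14 and 13 with the replicate block). Fbln1 (fibulin 1) was at 34.7 and 39.6 CPM in WT and 0.729 and 0.402 CPM in KO (log2 -6.14 ± 0.23), and Fn1 (fibronectin) at 149.8 and 176 CPM in WT and 41.6 and 45.0 CPM in KO (log2 -1.92 ± 0.12). Thbs1, the thrombospondin that activates latent TGF-beta, was at 1.66 and 2.43 CPM in WT and 0 and 0.0503 CPM in KO, a ratio of 62.5 from 1 read in KO. In the other direction, beside Lama4, the laminin chain gene Lamb3 of epithelial basement membranes was at 13.5 and 12.3 CPM in WT and 25.4 and 27.1 CPM in KO (log2 1.02 ± 0.12). Itgb4, an integrin subunit gene of epithelial laminin receptors, was at 81.5 and 89.3 CPM in WT and 347 and 401 CPM in KO (log2 2.12 ± 0.13, adjusted p = 8.83e-05). Collagen chains were called higher for 7 of 26 tested and lower for 1 (11 and 7 with the replicate block, 0 to 5 and 1 to 2 without 1 library). Col4a1 and Col4a2, the main basement membrane chains, had log2 differences of 0.66 ± 0.14 and 0.63 ± 0.14, Col3a1 of 0.66 ± 0.12, and Col8a1 (chromosome 16) was lower at 180.5 and 191 CPM in WT and 67.4 and 62.6 CPM in KO (log2 -1.53 ± 0.09). The test was no longer passed by Col4a1 without WT replicate 1 or KO replicate 2 (adjusted p up to 0.101), Col4a2 without WT replicate 1 or KO replicate 2 (adjusted p up to 0.103) and Col3a1 without WT replicate 1 (adjusted p up to 0.0547).

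Matrix proteases, their inhibitors and crosslinkers were called for 17 of 27 tested members, 7 higher and 10 lower (6 to 7 and 5 to 6 without 1 library). The lysyl oxidase gene Loxl2 was at 12.2 and 10.4 CPM in WT and 0.182 and 0.402 CPM in KO (log2 -5.12 ± 0.30), whereas Loxl1 was higher at 18.3 and 23.4 CPM in WT and 38.9 and 43.3 CPM in KO. Mmp9, a gelatinase gene, was at 1.07 and 1.58 CPM in WT and 0.0911 and 0.151 CPM in KO, and Adam19 at 28.1 and 35.4 CPM in WT and 9.66 and 11.6 CPM in KO. Plau, the urokinase plasminogen activator gene, was at 1.25 and 1.38 CPM in WT and 11.4 and 10.2 CPM in KO (log2 3.02 ± 0.23), and Plat, the tissue-type activator gene, at 4.57 and 4.14 CPM in WT and 8.93 and 8.45 CPM in KO. Fibroblast markers moved in part with this group: 4 of 8 tested (Dcn, Pdgfra, Col3a1 and Col1a2, the last by log2 0.31 ± 0.09) were called higher (2 to 3 and 0 without 1 library), the 11 listed markers summed to 1122 and 1238 CPM in WT and 1553 and 1652 CPM in KO, and Lum had no read. Their part in the result was not tested. The call did not hold for Col1a2 without each of the 4 libraries in turn (adjusted p up to 0.216).

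Of 29 tested guidance and cell contact receptors, 5 were called higher and 11 lower (1 to 2 and 7 to 8 without 1 library), with a median log2 of -0.43, or -0.26 without members on the shifted chromosomes. Nrp1, the neuropilin co-receptor of semaphorins and VEGF, was at 3.38 and 3.68 CPM in WT and 0.456 and 0.453 CPM in KO (log2 -2.95 ± 0.29). The semaphorin gene Sema3f was at 1.84 and 2.37 CPM in WT and 0.0911 and 0.201 CPM in KO, Sema6a (chromosome 18) at 4.15 and 2.89 CPM in WT and 0.547 and 0.453 CPM in KO, and the ephrin receptor gene Ephb3 (chromosome 16) at 33.5 and 35.6 CPM in WT and 13.8 and 13.6 CPM in KO. Sema3c moved up, to 285 and 238 CPM in KO from 74.1 and 71.6 CPM in WT (log2 1.83 ± 0.10). Of 22 tested integrin and focal adhesion genes, 2 were called higher and 4 lower (4 and 10 with the replicate block, 2 and 1 to 3 without 1 library), with Itgb8, which activates TGF-beta, at 5.16 and 4.73 CPM in WT and 1.37 and 1.61 CPM in KO (log2 -1.72 ± 0.24) and the actin linker Parva (chromosome 7) at 150.0 and 159 CPM in WT and 233 and 236 CPM in KO. In the TGF-beta and BMP pathway, 4 of 24 were called higher and 6 lower (7 and 10 with the replicate block, 3 to 4 and 2 to 4 without 1 library). Tgfbr2, the ligand-binding receptor gene, was at 70.2 and 74.5 CPM in WT and 132 and 144 CPM in KO (log2 0.92 ± 0.08), and the signal transducer genes Smad2 and Smad4 were higher by log2 0.62 ± 0.08 and 0.60 ± 0.09, both on chromosome 18. The ligand genes Inhba and Bmp2 fell. Inhba, an activin subunit gene, was at 8.54 and 8.94 CPM in WT and 2.64 and 3.02 CPM in KO, and Bmp2 had 1.19 and 1.58 CPM in WT and no read in KO, at least 14.1-fold lower. The mesenchymal transition list had 2 of 16 called higher and 6 lower (1 to 2 and 2 to 3 without 1 library), with Prrx1, a mesenchymal homeobox factor gene, at 409.6 and 396 CPM in WT and 290.5 and 252 CPM in KO and Pdgfra, a growth factor receptor gene, at 23.4 and 24.9 CPM in WT and 51.7 and 49.6 CPM in KO.

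The ERK pathway passes growth factor signals to the nucleus, and its list holds output genes together with growth factor receptor genes. Members that passed the test were mostly lower. Of 21 tested genes, 1 was called higher and 9 lower (2 and 16 with the replicate block, 1 to 2 and 6 to 8 without 1 library), with a median log2 of -0.34. Met, the hepatocyte growth factor receptor gene, was at 102 and 117 CPM in WT and 49.7 and 51.9 CPM in KO (log2 -1.12 ± 0.09, adjusted p = 0.00033), and the feedback inhibitor gene Spry2 at 28.9 and 26.8 CPM in WT and 13.8 and 12.02 CPM in KO (log2 -1.12 ± 0.16). The EGF receptor ligand gene Hbegf (chromosome 18) was at 16.7 and 16.6 CPM in WT and 9.66 and 8.20 CPM in KO. Erbb3, an EGF receptor relative, was the 1 that rose, at 21.4 and 28.1 CPM in WT and 78.5 and 79.2 CPM in KO (log2 1.67 ± 0.12). Among immediate early genes the AP-1 subunit gene Fosl1 was at 127 and 149 CPM in WT and 46.5 and 55.7 CPM in KO (log2 -1.44 ± 0.14) and the growth response gene Egr3 at 2.85 and 4.93 CPM in WT and 0.638 and 0.654 CPM in KO. Dkk2, a secreted Wnt antagonist gene, was at 164 and 138 CPM in WT and 35.1 and 31.1 CPM in KO (log2 -2.20 ± 0.12).

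Among genes tied to mechanical signalling, several channels were higher in KO. Of 18 tested mechanically gated channels, 5 were called higher and 1 lower (6 and 6 with the replicate block, 3 to 4 and 1 without 1 library), with a median log2 of 0.09. Of the 5 called higher, 2 lay on the shifted chromosomes, and without the members there the median was -0.02. The list is broad and takes in channels opened by other signals, such as Ano1 below. Kcnk5, a two-pore potassium channel gene, was at 0.237 and 0.526 CPM in WT and 12.4 and 12.9 CPM in KO (log2 5.04 ± 0.38). Trpv4, a calcium channel gene opened by swelling, was at 13.6 and 12.8 CPM in WT and 36.1 and 31.1 CPM in KO (log2 1.33 ± 0.13), and the calcium-activated chloride channel gene Ano1 (chromosome 7) at 158 and 183 CPM in WT and 282 and 293 CPM in KO. Trpv2 was at 2.25 and 2.50 CPM in WT and 0.0911 and 0.101 CPM in KO, a ratio of 24.4 (exact interval 8.03 to 120.8). Of 28 calcium entry, store and sensor genes, 4 were called higher and 4 lower (13 and 9 with the replicate block, 1 to 3 and 1 to 2 without 1 library), with the plasma membrane pump gene Atp2b4 at 5.52 and 6.96 CPM in WT and 17.1 and 16.3 CPM in KO and the endoplasmic reticulum pump gene Atp2a3 at 1.78 and 2.43 CPM in WT and 0.547 and 0.553 CPM in KO. YAP, TAZ and their targets gave 2 of 25 higher and 2 lower (9 and 8 with the replicate block, 1 to 2 and 1 to 2 without 1 library), and Wwtr1, the TAZ gene itself, was at 199.8 and 197 CPM in WT and 136 and 129 CPM in KO (log2 -0.60 ± 0.07). Ccn2, a target of YAP and TAZ, was at 2.73 and 2.43 CPM in WT and 0 and 0.302 CPM in KO. Actin and SRF target genes gave none of 18 higher (1 higher at an unadjusted p under 0.05 and 0 by DESeq2) and 2 lower (1 and 12 with the replicate block, 0 and 0 to 2 without 1 library). Calls were lost for Ccn2 without WT replicate 1 or WT replicate 2 (adjusted p up to 0.0785).

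Metabolic and stress lists were called in both directions. Among 30 serine, one-carbon and ATF4 target genes, 5 were called higher and 10 lower (7 and 20 with the replicate block, 1 to 3 and 5 to 7 without 1 library). Shmt2 and Mthfd2, mitochondrial enzymes of the folate cycle, were at 96.1 and 99.4 CPM in WT and 57.4 and 61.2 CPM in KO and 140.3 and 148 CPM in WT and 97.7 and 99.3 CPM in KO. Of 30 NRF2 and glutathione genes, 6 were called higher and 8 lower (11 and 14 with the replicate block, 3 to 4 and 5 to 7 without 1 library). Cbr3, a carbonyl reductase gene on chromosome 16, was at 7.59 and 6.18 CPM in WT and 0.365 and 0.201 CPM in KO (log2 -4.67 ± 0.40), and the glutathione transferase gene Mgst1 at 5.34 and 4.93 CPM in WT and 0.547 and 0.553 CPM in KO, while the heme oxygenase gene Hmox1 was higher at 13.8 and 13.9 CPM in WT and 25.8 and 29.5 CPM in KO. Lysosome genes gave 7 of 26 higher and 1 lower (13 and 3 with the replicate block, 4 to 5 and 0 without 1 library), led by Gpnmb, a lysosomal glycoprotein gene, at 109 and 101 CPM in WT and 272 and 279 CPM in KO (log2 1.38 ± 0.08). Of 29 glycolysis and hypoxia genes, 4 were higher and 3 lower (9 and 4 with the replicate block, 3 to 4 and 1 to 3 without 1 library), with the oxygen sensor gene Egln3 at 10.8 and 7.49 CPM in WT and 2.55 and 2.71 CPM in KO. Of 54 cytosolic ribosomal protein genes, 8 were lower and none higher (1 higher at an unadjusted p under 0.05 and 0 by DESeq2), with a median log2 of -0.24 (6 and 38 with the replicate block, 0 and 3 to 7 without 1 library), and Rpl4 was at 1771 and 1784 CPM in WT and 1291 and 1357 CPM in KO. Txnip, which restrains glucose uptake and binds thioredoxin, was at 6.41 and 5.12 CPM in WT and 19.9 and 20.01 CPM in KO (log2 1.77 ± 0.14). In the Ly6 family of surface proteins on chromosome 15, 3 of 7 were higher and none lower (1 to 3 and 0 without 1 library) (0 lower at an unadjusted p under 0.05 and 0 by DESeq2), with Psca, a prostate stem cell antigen gene, at 1.42 and 2.17 CPM in WT and 7.47 and 8.35 CPM in KO (log2 2.13 ± 0.23).

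**Figure D4:**
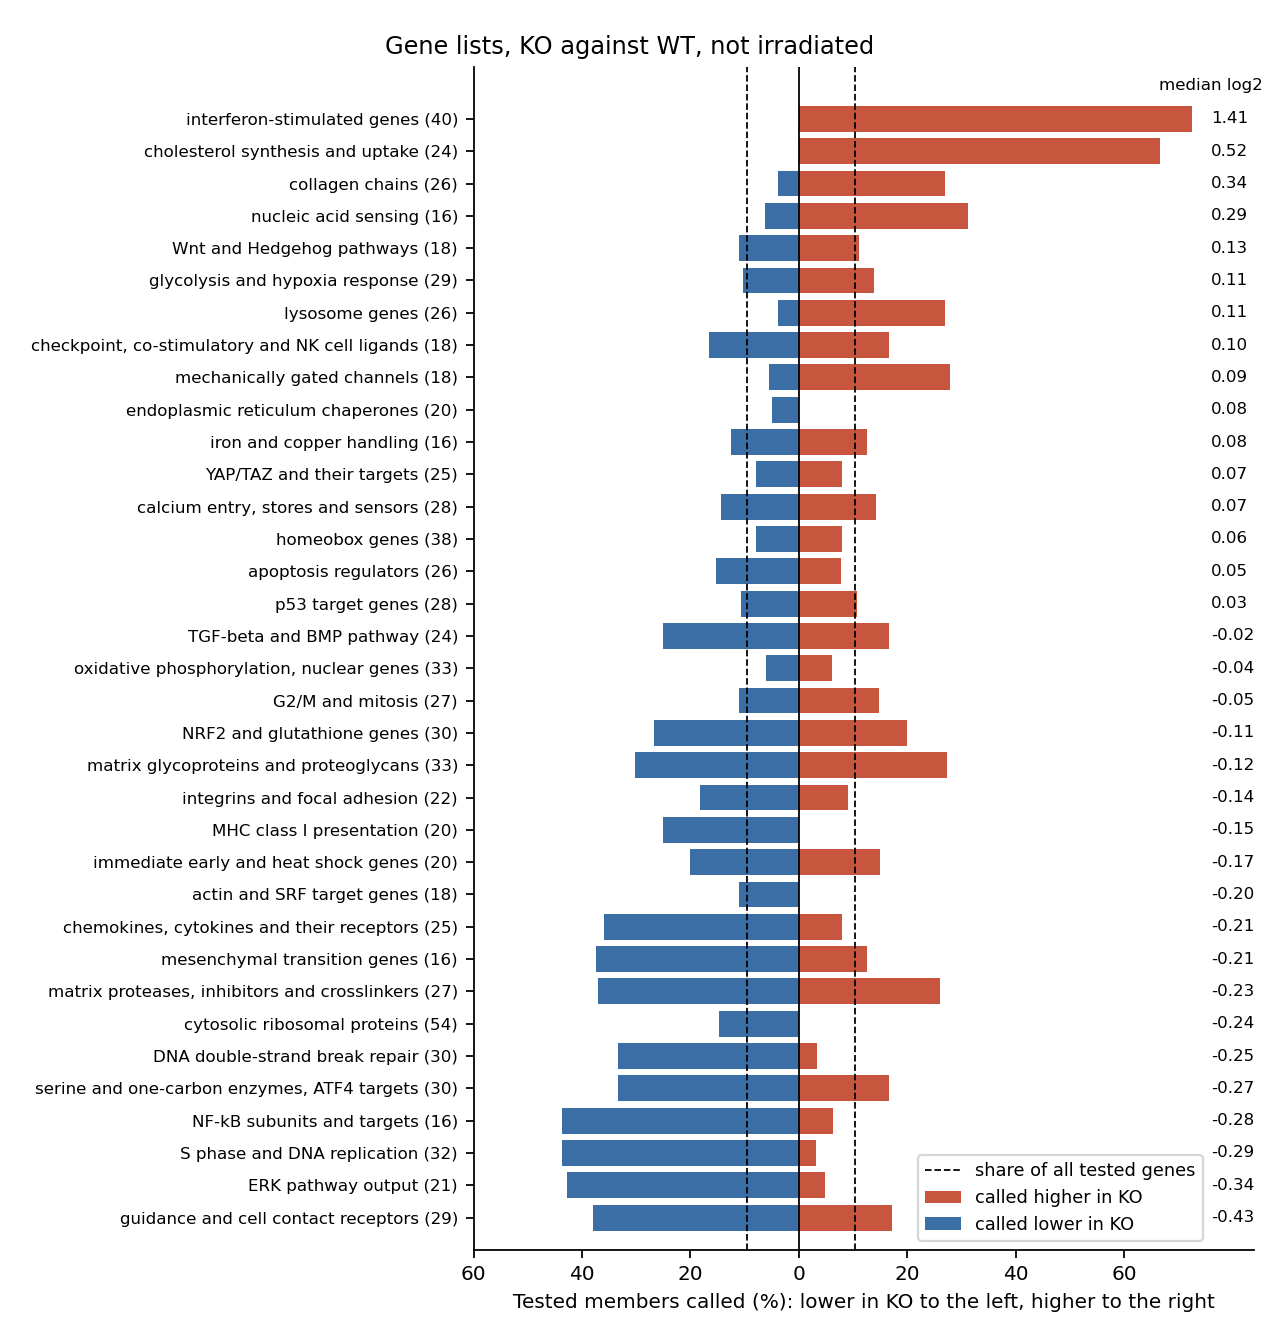
Share of tested members called in KO against WT without irradiation, for the gene lists with at least 15 tested members (their number in brackets). Bars to the right are members called higher and bars to the left members called lower, dashed lines are the shares over all tested genes (10.4% and 9.49%), and the right column gives each list's median log2 difference. Interferon-stimulated and cholesterol genes have bars on the right only, and replication, ERK and NF-kB lists have theirs mainly on the left.

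The same 2 lines were compared again in the 4 irradiated libraries, which share no library with the comparison above. Both comparisons came from the same fit over all 8 libraries, with a shared filter, scaling and estimate of spread. The overlap of their calls is therefore not an independent repeat. In the irradiated libraries, 3678 genes (24.6%) were called, 1980 higher and 1698 lower. Leaving out any 1 of the 4 irradiated libraries left 1160 to 1223 higher and 797 to 921 lower, and the replicate block gave 3761 and 3755. In all, 1944 genes were called in the same direction in both, which is 65.4% of the calls without irradiation and 52.9% of those after it, while 32 were called in opposite directions. Of the 848 genes called with at least 2-fold differences before irradiation, 808 had the same sign after it and 612 were called the same way. Over all 14923 tested genes, Pearson's r of the 2 log2 differences was 0.66 and Spearman's rho 0.61, across genes, which are not independent replicates.

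A test of whether the difference between the lines was of another size without irradiation called 290 genes (1.94%). For 205 of them the value of KO minus WT was lower without irradiation than after it, and for 85 it was higher. Without any 1 of the 8 libraries these counts were 98 to 131 and 17 to 30, and with the replicate block 1216 and 1276. The 6 genes of the first kind with the smallest p-values are given first. Tap1 was lower in KO before irradiation (log2 -0.50 ± 0.08) and higher after it (2.38). Daxx, a histone chaperone gene, was at 41.2 and 41.1 CPM in WT and 37.9 and 39.5 CPM in KO (log2 -0.10 ± 0.08, against 2.25 after irradiation), Ifit2 went from log2 0.89 ± 0.10 to 3.44, Ifitm3 from -0.13 ± 0.09 to 2.04, Slfn9, a Schlafen family gene, from -0.30 ± 0.07 to 1.60, and Tor3a, an interferon-inducible ATPase gene, from 0.09 ± 0.10 to 2.43. Genes of the other kind, given next, were chosen in the same way, with Dcn added. Pdgfra was at 23.4 and 24.9 CPM in WT and 51.7 and 49.6 CPM in KO, a log2 difference of 1.06 ± 0.08 that was -0.08 after irradiation. Txnip went from log2 1.77 ± 0.14 to 0.11, and the kelch family gene Klhl30, at 5.58 and 6.50 CPM in WT and 26.6 and 26.3 CPM in KO, from 2.12 ± 0.14 to 0.08. Slc35f1 went from 2.87 ± 0.23 to -0.01, and Dcn, the small proteoglycan decorin, at 1.84 and 1.58 CPM in WT and 9.57 and 7.89 CPM in KO, from 2.32 ± 0.17 to 0.60. Rtl9, a retrotransposon-derived gene on the X chromosome, was at 0.830 and 0.920 CPM in WT and 21.8 and 20.7 CPM in KO (log2 4.58 ± 0.18, 2.07 after irradiation), and the tetraspanin gene Tspan32 (chromosome 7) at 6.52 and 6.83 CPM in WT and 37.6 and 39.8 CPM in KO (log2 2.53 ± 0.11, 0.99 after irradiation). The comparison without irradiation, rather than the difference test, was no longer passed by Slfn9 without each of the 4 non-irradiated libraries in turn.

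**Figure D5:**
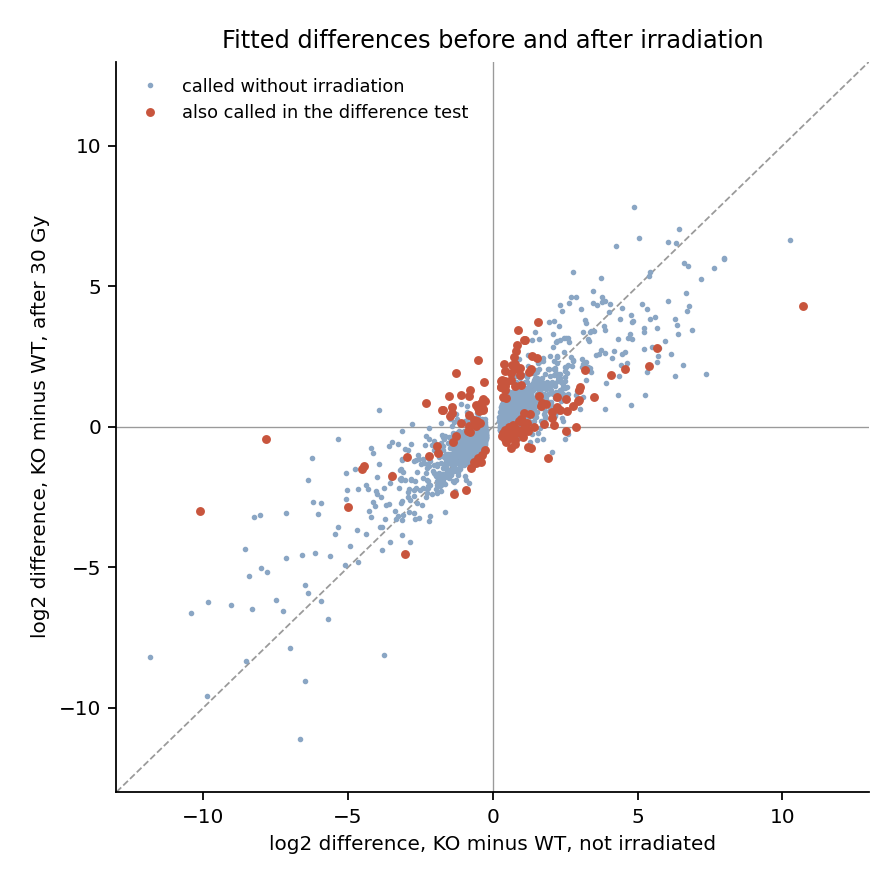
Fitted log2 difference between KO and WT without irradiation (horizontal) and after 30 Gy (vertical) for the 2971 genes called without irradiation. Red points are the 154 that the difference test also called, and the dashed line marks equal differences. Most points lie in the lower left and upper right corners, where 2791 genes (93.9%) have the same sign, against 74.9% of all tested genes. Values beyond about 7 include genes with no read in 1 line, whose fitted size depends on the prior count.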

How the data were processed

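RNA of MC38 cells was sequenced in 8 libraries, 2 in each of 4 groups (WT and KO, each without irradiation and after it). The authors deposited raw read counts per Ensembl gene, and the submitters' processing notes name HISAT2, HISAT, HTSeq and DESeq2 without versions, and the build mm10. The sources used here give neither the annotation release, the strand setting nor the treatment of multi-mapping reads, so reads of overlapping, antisense or near-identical genes may be shared. Symbols and coordinates were taken from GENCODE M21, which held 28915 of the 29079 identifiers.

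Genes were kept by edgeR's filterByExpr over all 4 groups, irradiated ones included (version 4.0.16, R 4.3.3, minimum count 10, minimum total 15). Counts were scaled by TMM and fitted with 1 mean per group over all 8 libraries, and KO was tested against WT by the quasi-likelihood F test. P-values were adjusted by Benjamini-Hochberg over all 14923 tested genes, and genes under 0.05 were called. The SE is the log2 difference divided by the square root of F. CPM is the count scaled to a library total of 1000000. Where a line had no read, the fold was set against a floor of 3 reads over the group, and ratios of few reads carry exact Clopper-Pearson intervals of 95%, which cover counting error only. On simulated counts for the non-irradiated comparison (14616 genes), the fit called 19.4% of genes changed 1.5-fold, 74.6% at 2-fold and 90.9% at 4-fold, with 11 false calls among 14416 unchanged genes. The simulated counts were drawn independently for each library, without the shared deviation of same-numbered libraries. These shares may therefore not hold for the real libraries.

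Libraries of the same number deviated together from the group means (correlations of 0.619 to 0.657 over all pairs of groups). The main calls do not use this pairing, which enters only the alternative fit with the replicate number as a block. Other alternatives were DESeq2 (1.42.0), other scalings and filters, the 4 non-irradiated libraries alone, leaving out each library, and leaving out shifted chromosomes. The promoter windows are RefSeq's (GRCm38.p6, 250 bases before to 50 after the start) and were found for 10516 tested genes.

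The comparison and the gene lists were chosen with earlier results of these data known. The text names Piezo1 and Piezo2, the 10 largest called rises and falls with at least 5 CPM in the higher line, the 5 largest called gains and losses in CPM, up to 8 genes off in each line, up to 4 called members a direction of each list, and up to 6 genes a direction of the difference test. Members such as Isg15, Ifit1, Oas3, Ifnb1, Cgas, Psme1, H2-K1, B2m, Hmgcs1 and the marker genes of other cell types were named after their values were seen. Some genes are not reported here.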

Additional observations from a re-analysis of the deposited data

Results flagged for a closer look

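The results listed here are named genes for which the difference between KO and WT had another size without irradiation than after it, by a test of that difference itself (edgeR quasi-likelihood test, adjusted p under 0.05, 290 of 14923 genes called). Each value is KO minus WT without irradiation, less KO minus WT after it, on the log2 scale. Groups of 2 libraries were too small for a test of single libraries.

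Interferon-inducible genes and genes of antigen presentation had negative values, which means that KO stood higher against WT after irradiation than before it. The values were -2.88 for Tap1, -2.35 for Daxx, -1.90 for Slfn9, -2.56 for Ifit2, -2.17 for Ifitm3, -2.35 for Tor3a and -1.74 for Ifi203. They were -2.18 for Isg15, -1.02 for Lgals9, -3.20 for Psmb9, -2.36 for Psmb8, -1.38 for H2-Q4 and -0.58 for Psme1. Further negative values were -7.12 for Enpp5, -3.03 for the cation channel gene Trpv2, -1.16 for Dkk2 and -0.76 for Mthfd2.

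Positive values were 2.04 for Klhl30, 2.51 for Rtl9, 1.54 for Tspan32, 1.14 for Pdgfra, 1.67 for Txnip, 2.88 for Slc35f1, 1.71 for Dcn and 3.25 for Kazn. They were 6.42 for Clstn3, 0.61 for Mcm4, 0.60 for Krt14, 1.61 for Plau, 0.60 for Plk2, 2.87 for Edn2 and 0.93 for Erbb3. The sizes for Enpp5 and Clstn3 depend on the prior count of the fit, since 1 line had no read without irradiation. Leaving out at least 1 of the 8 libraries ended the call for Clstn3, Dcn, Dkk2, Edn2, Erbb3, H2-Q4, Isg15, Kazn, Krt14, Mcm4, Mthfd2, Plau, Plk2, Psmb8, Psme1 and Trpv2, and DESeq2 ended those of Edn2 and Trpv2.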

How the results depend on the processing

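The main counts without irradiation were 1555 genes higher and 1416 lower in KO. With the replicate block, which treats same-numbered libraries as pairs, they were 3197 and 3504, with DESeq2 and the replicate block 2437 and 2594, and with the 4 non-irradiated libraries alone and the replicate block 3220 and 3283. The block also made Piezo1 and Cgas pass the test, and it ended the call of no named gene. The 4 non-irradiated libraries alone gave 831 lower genes, and leaving out chromosomes 3, 7, 16 and 18, whose medians were over 0.1 in size, gave 933 higher genes, with fewer genes tested. Leaving out each library in turn gave 807 to 937 higher and 706 to 808 lower genes, with the lone library of a group assumed to vary like the others. After irradiation the replicate block gave 3761 higher and 3755 lower genes, and leaving out each library gave 1160 to 1922 and 797 to 1626. For the difference between the 2 comparisons the replicate block gave 1276 more positive and 1216 more negative genes, and leaving out each library gave 17 to 30 and 98 to 131. Other scalings and filters, run for the comparison without irradiation, and DESeq2 without a block, run for all, kept the counts within 1.5 times, with 126 and 275 genes in the difference test by DESeq2. No named gene that passed the test changed sign under these alternatives, but the balance of counts turned: lower genes outnumbered higher ones in each fit with the replicate block and without those chromosomes, and in the difference test more positive outnumbered more negative ones with the replicate block. Of 148 named genes called without irradiation, 20 lost the call without at least 1 library and 2 with DESeq2. A gene without an adjusted p from DESeq2 was not counted as lost. With the 4 non-irradiated libraries alone, 14 of the 148 lost the call, Tap1 and Tnfaip3 among them. The causes were not tested. Depth limits the comparison for genes of few reads: 3 reads correspond to between 0.151 and 0.273 CPM in 1 library.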
